A study of Mus musculus with 39 samples.

Results

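The genes of calcitonin gene-related peptide (CGRP) and adrenomedullin signalling were followed in the gubernaculum and the testis of wild-type mice and of mice with an altered Insl3 gene. The 7 members were chosen by symbol, from the peptide genes Calca, Calcb and Adm, the receptor gene Calcrl and the accessory protein genes Ramp1, Ramp2 and Ramp3. They were 7 of the 21561 genes listed in both deposited count tables, and each had 1 row in either table. All mice were male C57BL/6J. The control group was wild type (WT). In INSL3-KI mice the coding sequence of cetacean INSL3 (from the minke whale) stood in place of the mouse coding sequence at the Insl3 locus, under the mouse promoter, and homozygotes without the neomycin cassette were used after a cross to Cre mice. INSL3-KO mice carried an Insl3 knockout. RNA was sequenced from gubernaculum at P8 (WT, INSL3-KI, INSL3-KO) and P23 (WT, INSL3-KI) and from testis at P8 and P23 (WT, INSL3-KI, INSL3-KO) and P40 (WT, INSL3-KI), where P is the postnatal day. There were 13 groups of 3 libraries, 39 in all, labelled as biological replicates. How many animals made up a library was not given in the sources used here.

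CGRP and adrenomedullin are related peptide hormones that dilate blood vessels. Calca encodes calcitonin and αCGRP by alternative splicing, Calcb encodes βCGRP, and Adm encodes adrenomedullin, which also acts in the growth of blood and lymphatic vessels. Both peptides can act through a shared G protein-coupled receptor, calcitonin receptor-like receptor (Calcrl). It needs a receptor activity-modifying protein (RAMP) to reach the cell surface. The RAMP sets which peptide is preferred: Calcrl with Ramp1 is the CGRP receptor, and Calcrl with Ramp2 or Ramp3 forms the adrenomedullin receptors. CGRP is also the classical peptide of sensory nerves, and a CGRP-containing nerve, the genitofemoral nerve, has long been studied in the gubernaculum, the ligament that guides the descent of the testis. INSL3 is a hormone of Leydig cells and acts on the gubernaculum through its receptor Rxfp2.

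The 2 CGRP genes are close relatives, and the sequences that follow show how far counts can tell them apart. In GENCODE on GRCm38, the build of the deposited files, Calca (ENSMUSG00000030669) lies on the minus strand at chr7:114631478-114636357 and Calcb (ENSMUSG00000030666) on the plus strand at chr7:114718643-114723365. Exon 4 is numbered here within transcripts Calca-201 and Calcb-201, and its coding part encodes the CGRP peptide. That part spans 157 bases at chr7:114632443-114632599 in Calca and 160 bases at chr7:114721975-114722134 in Calcb. Each is given on its coding strand from 5′ to 3′, and the capitals mark the 59-base run that is identical in both genes.

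Calca exon 4: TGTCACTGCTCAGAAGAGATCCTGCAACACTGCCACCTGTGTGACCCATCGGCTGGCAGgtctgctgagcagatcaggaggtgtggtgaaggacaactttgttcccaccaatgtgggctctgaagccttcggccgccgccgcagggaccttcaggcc

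Calcb exon 4: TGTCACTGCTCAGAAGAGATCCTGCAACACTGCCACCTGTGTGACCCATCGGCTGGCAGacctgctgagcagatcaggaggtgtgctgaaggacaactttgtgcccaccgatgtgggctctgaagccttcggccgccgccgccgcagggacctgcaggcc

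Over the whole coding sequence, the longest run of identical bases shared by Calca and Calcb was 61, against 13 for the next pairs of members. Only a read lying wholly inside that run could not be assigned to one of the pair from its letters. The paper's reads were longer than the run, so a full-length read over it took in bases beyond it. Gene counts could not separate the calcitonin transcript of Calca from its CGRP transcript. Calcrl (ENSMUSG00000059588) lies at chr2:84330626-84425411 on the minus strand, Ramp1 (ENSMUSG00000034353) at chr1:91179822-91225196, Ramp2 (ENSMUSG00000001240) at chr11:101246028-101259546, Ramp3 (ENSMUSG00000041046) at chr11:6658521-6677475 and Adm (ENSMUSG00000030790) at chr7:110627661-110629820, all 4 on the plus strand. Ramp2 shares 1103 exon bases with Vps25 on the same strand and Ramp3 shares 101 exon bases with Gm11978 on the opposite strand, so the counts of both are uncertain to that extent.

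Calcrl and Ramp3 rose together in the P8 gubernaculum, as described further on, while Ramp1 was lower there, and parts of their RefSeq promoter windows (GRCm38.p6) are shown for that reason. Each shown part begins at the upstream end of the window and ends before the first annotated exon base of the gene, which in Calcrl and Ramp3 lies upstream of the RefSeq start site. Capitals mark GC boxes (GGGCGG) and E-boxes (CANNTG), each searched on both strands. Each stretch is given on the strand of its gene.

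Calcrl, chr2:84425412-84425516: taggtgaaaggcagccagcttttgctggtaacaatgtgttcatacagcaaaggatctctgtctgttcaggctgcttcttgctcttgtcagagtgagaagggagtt

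Ramp3, chr11:6658283-6658505: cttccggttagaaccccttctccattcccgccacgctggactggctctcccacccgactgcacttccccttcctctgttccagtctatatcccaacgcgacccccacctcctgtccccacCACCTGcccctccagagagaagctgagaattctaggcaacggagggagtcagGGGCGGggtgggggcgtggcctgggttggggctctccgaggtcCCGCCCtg

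Ramp1, chr1:91179572-91179821: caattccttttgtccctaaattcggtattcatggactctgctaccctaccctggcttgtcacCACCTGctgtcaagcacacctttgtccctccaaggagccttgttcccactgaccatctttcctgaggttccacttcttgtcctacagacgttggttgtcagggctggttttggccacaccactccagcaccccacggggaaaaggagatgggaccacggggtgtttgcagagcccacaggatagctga

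In the full RefSeq promoter windows, which run on past these stretches, Ramp3 held 3 GC boxes and 1 E-box, Calcrl 1 GC box and no E-box, Ramp1 1 E-box and no GC box, and Adm 1 GC box. A GC box was present in 35.66% of the 32851 promoter windows of the table and an E-box in 72.31%. None of the 5 members with a window held the cyclic AMP response element TGACGTCA (1.79% of windows), the TATA box TATAAA (13.62%) or the core ACGTG of hypoxia response elements (19.62%), which can also lie within an E-box. Calcb and Ramp2 had no entry. A match describes these letters only.

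The libraries held 29861447 to 45260372 counts (median 36944626). The 12 libraries of INSL3-KO and of WT P23 testis came in a second deposited table, and the other 27 in the first. For the P8 comparisons with INSL3-KO, and for P23 testis INSL3-KI against WT or INSL3-KO, the table and the genotype therefore cannot be told apart; P23 testis INSL3-KO against WT lies within 1 table. As a check of labels, mouse Insl3 had 25 to 87 counts in WT P8 gubernaculum and 0 in all 6 INSL3-KI and INSL3-KO libraries of that age. At P23 the gubernaculum libraries labelled INSL3-KI held 12, 28 and 0 Insl3 counts against 27, 9 and 20 in WT (adjusted p = 0.72). In the first and second, Insl3 therefore did not bear out the label. These counts are low, and INSL3-KI testis libraries also kept 15 to 33 Insl3 counts at P8 and 52 to 84 at P23. In testis the mean Insl3 level of WT was 953 CPM at P23 and 904 CPM at P40. It was 1.89 and 11.8 CPM in INSL3-KI at these ages and 0.0383 CPM in P23 INSL3-KO. CPM values are counts relative to library size, scaled within each tissue by trimmed mean of M-values (TMM). At P8 the testis libraries labelled INSL3-KO kept 17.7, 17.8 and 13.4 CPM of Insl3 (613 to 906 counts) against 72.9, 79.5 and 63.4 in WT, which goes against their label. In INSL3-KI a low Insl3 count checks the replaced mouse sequence and says nothing of the whale sequence. The 3 P23 gubernaculum libraries labelled INSL3-KI also stood apart from one another: their summed adipocyte markers were 6899, 15680 and 551 CPM and their epithelial markers 1324, 7.70 and 1837 CPM. The receptor of INSL3, Rxfp2, was at 39.2 to 49.4 CPM in WT P8 gubernaculum, at 1.49 to 1.95 CPM in INSL3-KI (log2 fold change −4.70, adjusted p = 5.7e-07) and at 10.8, 9.67 and 31.7 CPM in INSL3-KO, where replicate 3 stood apart (adjusted p = 0.029). At P23 it was at 64.1 to 123 CPM in WT and at 0.22, 4.90 and 1.24 CPM in the libraries labelled INSL3-KI (adjusted p = 0.03). In bulk tissue, fewer cells of a type and less RNA per cell cannot be told apart.

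At P8 the gubernaculum of WT mice held more Ramp1 and Ramp2 transcript than transcript of the receptor, of Ramp3 or of any peptide. Levels between genes were compared as FPKM (fragments scaled by gene length and by depth), which corrects for length. Ramp1 (41.4 ± 6.08 FPKM, SD, n = 3) and Ramp2 (36.9 ± 7.83 FPKM) were highest and overlapped. Calcrl stood at 5.29 ± 0.548 FPKM, Adm at 3.89 ± 0.349 FPKM and Ramp3 at 1.68 ± 0.585 FPKM. The CGRP genes were lowest, with Calca at 0.486 ± 0.382 FPKM and Calcb at 0.0424 FPKM on average. The order of the upper genes changed with genotype: in INSL3-KI the FPKM of Calcrl (48.3 ± 10.3) and Ramp2 (46.5 ± 1.99) came first, followed by Ramp1 (29.1 ± 5.96) and Ramp3 (21.4 ± 12.4), with overlap within both pairs.

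The main change among the members at P8 was a rise of the receptor Calcrl and of Ramp3 in the gubernaculum of both mutants. Within a gene, levels are given as CPM scaled by trimmed mean of M-values (TMM) within the tissue. A gene was called changed when edgeR's quasi-likelihood test gave a Benjamini-Hochberg adjusted p under 0.01 over all genes tested and the change was at least 2-fold, and every adjusted p that follows is from that test unless another is named. Of the 7 members, all tested, 2 were called in INSL3-KI against WT and 2 in INSL3-KO against WT, where 24.1% and 30.7% of all genes tested were called. The median log2 fold change of the 7 members is the value of a single gene. In INSL3-KI it was that of Adm (0.58, not called), beside 0.02 over all genes tested. In INSL3-KO it was that of Calca, whose levels overlapped with WT (adjusted p = 0.29). Neither median shows a shift of the members together.

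Calcrl, the shared receptor of both peptides, was at 26.9, 29.8 and 33.6 CPM in the 3 WT libraries of P8 gubernaculum. It was at 217.5, 164 and 252 CPM in INSL3-KI and at 195.5, 187 and 207.5 CPM in INSL3-KO. Every mutant library was above every WT library. The log2 fold change was 2.85 (SE 0.17, adjusted p = 5.5e-06) in INSL3-KI and 2.70 (SE 0.10, adjusted p = 2e-06) in INSL3-KO. Between INSL3-KI and INSL3-KO the levels overlapped (adjusted p = 0.56).

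Ramp3, which with Calcrl makes an adrenomedullin receptor, was at 3.38, 1.83 and 2.09 CPM in WT P8 gubernaculum. It was at 17.3, 14.1 and 39.4 CPM in INSL3-KI and at 42.0, 43.0 and 38.5 CPM in INSL3-KO. All mutant libraries were above all WT libraries, and the INSL3-KI libraries spread more widely than the INSL3-KO libraries. The log2 fold change was 3.32 (SE 0.44, adjusted p = 0.00039) in INSL3-KI and 4.08 (SE 0.23, adjusted p = 7.8e-06) in INSL3-KO. When all gubernaculum groups shared 1 estimate of the spread, Ramp3 lost its call in INSL3-KI (adjusted p = 0.048) and in INSL3-KO (adjusted p = 0.017).

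Ramp1, which with Calcrl makes the CGRP receptor, was at 125.5, 102 and 97.2 CPM in WT P8 gubernaculum. It was at 45.7, 70.4 and 62.6 CPM in INSL3-KI and at 72.5, 70.6 and 70.5 CPM in INSL3-KO, below every WT library. The log2 fold change was −0.82 (SE 0.17, adjusted p = 0.0046) in INSL3-KI and −0.61 (SE 0.10, adjusted p = 0.0014) in INSL3-KO, in both cases less than 2-fold and so not called. Ramp2, the main adrenomedullin receptor partner in vessels, was at 65.8, 41.5 and 50.9 CPM in WT and overlapped with INSL3-KI at 48.9, 47.5 and 52.0 CPM (adjusted p = 0.81). In INSL3-KO it was at 68.7, 71.7 and 69.6 CPM, above every WT library by 0.41 on the log2 scale (SE 0.15, adjusted p = 0.047).

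Of the peptide genes at P8, Adm was at 6.82, 6.33 and 5.79 CPM in WT gubernaculum and at 9.70, 9.63 and 8.14 CPM in INSL3-KI, a difference of 0.58 on the log2 scale (SE 0.17, adjusted p = 0.021) that did not reach 2-fold. The INSL3-KO libraries, at 5.92, 7.58 and 6.58 CPM, overlapped with WT (adjusted p = 0.68). Calcb had 5, 0 and 0 counts in the WT libraries, 19, 33 and 13 counts in INSL3-KI and 13, 21 and 18 counts in INSL3-KO. The mutant libraries were all above the WT libraries, with an adjusted p of 0.025 in INSL3-KI and 0.039 in INSL3-KO, so Calcb was not called. Without WT replicate 1, which held all 5 WT counts, Calcb passed the rule in both comparisons (adjusted p = 0.008 and 0.0046), and without WT replicate 2 its adjusted p in INSL3-KI was 0.077. Calca had 34, 9 and 12 counts in WT, 43, 7 and 17 counts in INSL3-KI and 42, 47 and 31 counts in INSL3-KO, with overlapping levels in both comparisons (adjusted p = 0.92 and 0.29).

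**Figure D1:**
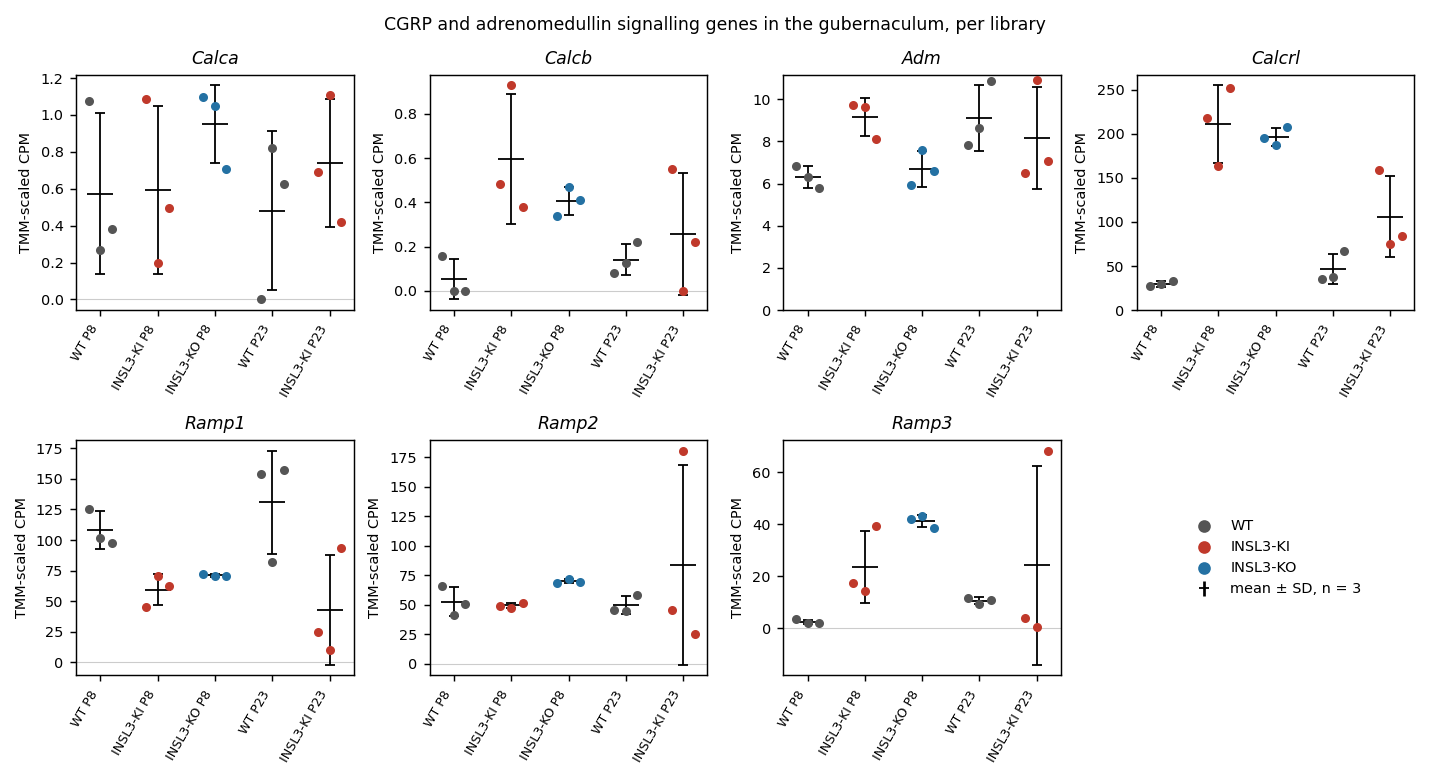
Level of each member in every gubernaculum library, as TMM-scaled CPM on a linear axis, by group; points are libraries and bars are the mean ± SD (n = 3). Calcrl and Ramp3 of both P8 mutant groups lie above all WT P8 libraries, Ramp1 lies below them, and the P23 libraries labelled INSL3-KI spread for Ramp2 and Ramp3 from 25.2 to 180.5 and from 0.277 to 68.3 CPM.

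Between INSL3-KI and INSL3-KO at P8, edgeR called 0 of the 7 members, against 22.5% of all genes tested. At an unadjusted p under 0.05 there were 2 members, and DESeq2 and limma also called 0. These 2 were Ramp2, lower in INSL3-KI by a log2 fold change of −0.50 (SE 0.06, adjusted p = 0.00041), and Adm, higher in INSL3-KI by 0.46 (SE 0.16, adjusted p = 0.035). Ramp3 had an adjusted p of 0.089, and without INSL3-KI replicate 3, the library with 39.4 CPM, it was called lower in INSL3-KI (log2 fold change −1.38, adjusted p = 0.00046).

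The split of RAMP transcripts was computed in each library as the share of each gene in the summed FPKM of Ramp1, Ramp2 and Ramp3. In WT P8 gubernaculum Ramp1 made up 52.0% ± 2.76 (SD, n = 3), Ramp2 46.0% ± 2.54 and Ramp3 2.07% ± 0.334. Ramp3 took 21.2% ± 8.86 in INSL3-KI and 26.3% ± 0.966 in INSL3-KO, and Ramp1 30.2% ± 6.21 and 24.8% ± 0.408. The Ramp1 share was thus 21.8 and 27.2 percentage points below WT and the Ramp3 share 19.1 and 24.2 points above it. No mutant library overlapped with WT for these shares, and the two-sided exact permutation test gave p = 0.1, the smallest that 3 against 3 libraries allow, so no share difference could pass 0.05. The Ramp2 share moved less. It was 48.6% ± 6.36 in INSL3-KI, which overlapped with WT (exact permutation p = 0.5). In INSL3-KO it was 48.9% ± 0.793, above WT by 2.95 points and without overlap (exact permutation p = 0.1).

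**Figure D2:**
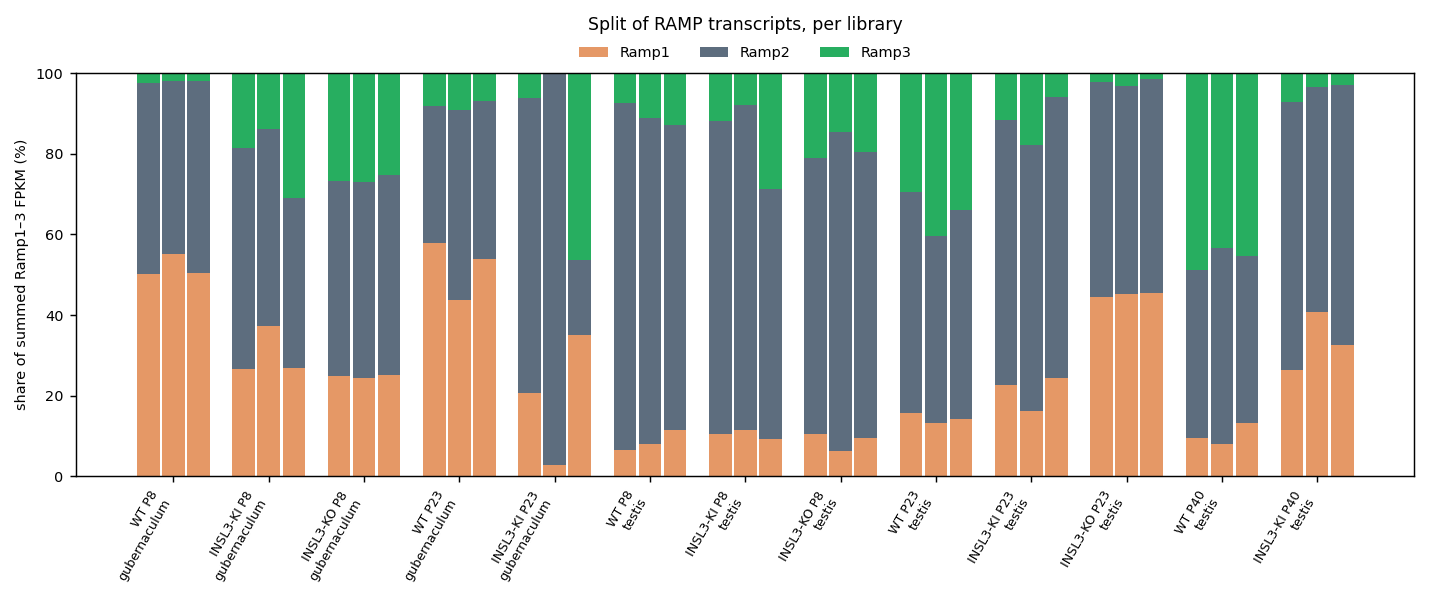
Share of Ramp1, Ramp2 and Ramp3 in the summed FPKM of these genes, 1 bar per library, grouped by genotype, age and tissue. The Ramp3 share is 1.82 to 2.44% in WT P8 gubernaculum and at least 13.9% in every mutant library of that age, while in testis it is largest in WT P40 (45.9% on average) and smallest in P23 INSL3-KO (2.26%).

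Cell type markers moved in the same libraries. The 13 markers of blood endothelium, where Calcrl and Ramp2 are typically expressed, summed to 673 to 874 CPM in WT P8 gubernaculum, 770 to 914 CPM in INSL3-KI and 918 to 935 CPM in INSL3-KO, and 3 and 4 of the 13 were called higher. Over all genes tested, 24.1% were called in INSL3-KI and 30.7% in INSL3-KO, which applies to every list below. The 5 lymphatic markers summed to 87.5 to 126, 109 to 162 and 108 to 119.9 CPM, with 3 called higher and 1 lower in INSL3-KI and 2 higher and 1 lower in INSL3-KO. The 7 smooth muscle and pericyte markers summed to 1611 to 1762, 14670 to 18130 and 6807 to 7203 CPM in WT, INSL3-KI and INSL3-KO. The 10 skeletal muscle markers fell from 41110 to 44340 CPM in WT to 721 to 1270 CPM in INSL3-KI and 7473 to 8040 CPM in INSL3-KO, all 10 called lower in both. The 6 adipocyte markers, at 132 to 166 CPM in WT, summed to 851 to 1100 CPM in INSL3-KI and 1977 to 2197 CPM in INSL3-KO, and the 5 epithelial markers, at 35.7 to 123 CPM in WT, to 1190 to 1390 CPM and 639 to 681 CPM; all 6 and all 5 were called higher in both. The 9 sensory neuron markers summed to 32.1 to 44.9 CPM in WT, 4.98 to 7.62 CPM in INSL3-KI and 15.9 to 17.7 CPM in INSL3-KO. For this list and the smooth muscle list only sums are given, which a few abundant genes can set. No marker of these lists had 0 counts in all 3 libraries of a P8 gubernaculum group. Their part in the results for the members was not tested.

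**Figure D3:**
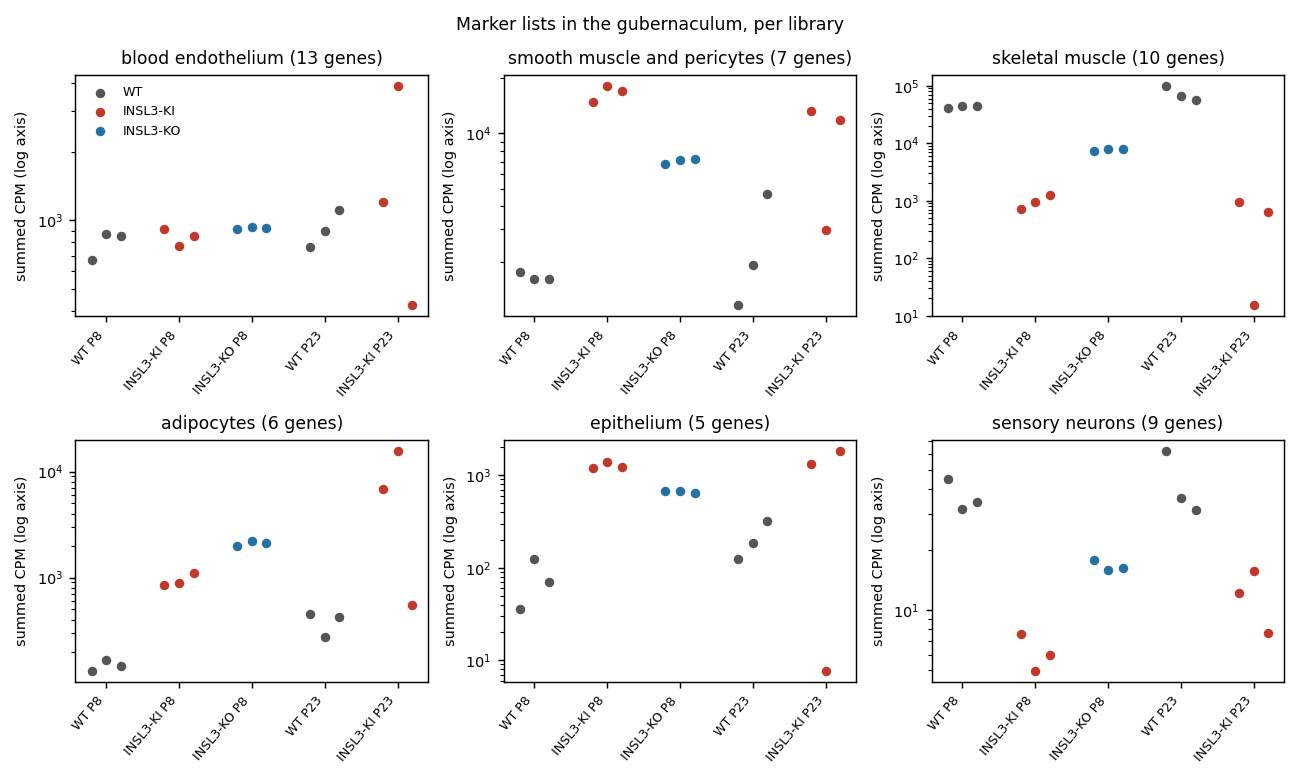
Summed TMM-scaled CPM of 6 marker lists in every gubernaculum library, on log axes; points are libraries. The sum of the blood endothelial markers overlaps between WT and INSL3-KI at P8, while the skeletal muscle, smooth muscle, adipocyte, epithelial and sensory neuron lists separate the P8 groups, and the P23 libraries labelled INSL3-KI differ widely among themselves.

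The pathway around the receptor was followed with 43 further genes in 7 lists: other peptides of the family, other receptors and accessory proteins, peptide processing, peptide breakdown and binding, receptor coupling, cyclic AMP effectors, and targets of the hypoxia response, to which Adm belongs. In P8 gubernaculum, 15 of 40 tested were called in INSL3-KI (8 lower, 7 higher) and 12 of 40 in INSL3-KO (5 lower, 7 higher), which is 37.5% and 30% beside the 24.1% and 30.7% of all genes. The other peptides of the family, Adm2 and Iapp, were too low to be tested in any comparison. Calcr, the calcitonin receptor, which with a RAMP makes the amylin receptors, had 780 to 888 counts in WT, 3, 0 and 0 in INSL3-KI (adjusted p = 1.7e-06) and 218 to 314 in INSL3-KO (adjusted p = 1e-05). Mme, the membrane peptidase neprilysin, rose from 13.4 to 19.1 CPM in WT to 87.9 to 150.4 CPM in INSL3-KI (log2 fold change 2.88, SE 0.22, adjusted p = 1.9e-05) and 110 to 119.8 CPM in INSL3-KO (2.78, SE 0.14, adjusted p = 4.8e-06). Prkaca, a catalytic subunit of the cyclic AMP-dependent kinase, fell from 564 to 693 CPM to 74.4 to 88.0 CPM and 97.7 to 110.4 CPM (log2 fold change −2.88 and −2.61, adjusted p = 1.2e-06 and 1.9e-06). Among the peptide processing genes, the prohormone convertase Pcsk2 fell by 4.71 on the log2 scale in INSL3-KI (SE 0.82, adjusted p = 0.0017) and by 2.71 in INSL3-KO (SE 0.40, adjusted p = 0.00076), and the convertase chaperone Scg5 rose by 1.92 in INSL3-KI (SE 0.28, adjusted p = 0.00071). The kinase regulatory subunit Prkar2b rose from 21.7 to 28.1 CPM to 203 to 220.4 CPM in INSL3-KO (log2 fold change 3.09, SE 0.11, adjusted p = 1.5e-06). Between the mutants, 12 of 40 pathway genes were called, or 30%, beside 22.5% of all genes.

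At P23 no member was called between WT gubernaculum and the libraries labelled INSL3-KI. In 2 of the latter the Insl3 counts did not bear out the label. The libraries labelled INSL3-KI spread widely for each RAMP. Calcrl was at 35.8, 37.9 and 66.9 CPM in WT and at 159, 74.6 and 84.6 CPM in INSL3-KI, with every INSL3-KI library above every WT library (adjusted p = 0.1). Ramp1 was at 154, 82.4 and 157 CPM in WT and 24.9, 9.86 and 93.8 CPM in INSL3-KI, which overlapped (adjusted p = 0.22). Ramp3 was at 11.7, 9.29 and 10.9 CPM in WT and at 3.996, 0.277 and 68.3 CPM in INSL3-KI (adjusted p = 0.62), and Ramp2 at 46.0, 44.6 and 58.5 CPM in WT and 45.5, 180.5 and 25.2 CPM in INSL3-KI (adjusted p = 0.48). edgeR called 0 of the 6 members tested, against 2.57% of all genes tested; 1 member had an unadjusted p under 0.05, DESeq2 and limma also called 0, and so did edgeR without any 1 of the 6 libraries. The replicate with 180.5 CPM of Ramp2 and 0.277 CPM of Ramp3 had the lowest sum of skeletal muscle markers, 15.1 CPM. It also had the largest sum of blood endothelial markers, 3893 CPM against 1203 and 424 CPM in the other libraries labelled INSL3-KI. Its Calcrl, however, was the lowest of that group, at 74.6 CPM against 159 and 84.6 CPM. The libraries with 3.996, 0.277 and 68.3 CPM of Ramp3 were at 1324, 7.70 and 1837 CPM of epithelial markers. WT libraries, at 9.29 to 11.7 CPM of Ramp3, were at 124 to 321 CPM of these markers. Ramp3 thus did not follow the epithelial sum in every library. The part of these markers was not tested. Adm, at 7.84, 8.63 and 10.8 CPM in WT and 6.50, 10.9 and 7.07 CPM in INSL3-KI, and Calca, at 0 to 26 counts in WT and 19 to 36 in INSL3-KI, overlapped (adjusted p = 0.73 and 0.75). Calcb was not tested, with 2, 4 and 7 counts in WT and 20, 0 and 10 in INSL3-KI. Of the pathway genes, 2 of 40, or 5%, were called, both lower.

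With age, Ramp3 was called higher in the WT gubernaculum. It was 1.83 to 3.38 CPM at P8 and 9.29 to 11.7 CPM at P23, without overlap (log2 fold change 2.12, SE 0.29, adjusted p = 0.0026). That was 1 of 6 members tested, beside 10.5% of all genes tested, and 9 of 40 pathway genes (22.5%). Calcrl, at 26.9 to 33.6 CPM at P8 and 35.8 to 66.9 CPM at P23 (adjusted p = 0.079), and Adm, at 5.79 to 6.82 and 7.84 to 10.8 CPM (adjusted p = 0.088), also did not overlap between the ages but did not pass the test. Ramp1, Ramp2 and Calca overlapped (adjusted p = 0.42, 0.74 and 0.89). The Ramp3 call was lost without P8 replicate 2 (adjusted p = 0.015) or P8 replicate 3 (adjusted p = 0.017), and with all gubernaculum groups in 1 fit (adjusted p = 0.18). In the libraries labelled INSL3-KI, edgeR called 0 of 7 members between the ages and 0% of all genes; 1 member had an unadjusted p under 0.05 and DESeq2 and limma called 0 members. Their adjusted p lay between 0.21 (Calcrl) and 0.99 (Ramp3). For the difference of the INSL3-KI effect between P23 and P8, edgeR called 0 of 7 members and 0.281% of all genes, with 2 members at an unadjusted p under 0.05, 1 member called by DESeq2 and 0 by limma. The adjusted p was 0.056 for Calcrl and 0.16 for Adm, and lay between 0.42 and 0.88 for Calcb, Ramp3, Ramp2, Ramp1 and Calca.

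In WT at P8 Ramp1 and Calcrl were higher in the gubernaculum than in the testis. By the call rule, 2 of 6 members tested were called between the tissues, beside 28.4% of all genes tested. Ramp1 was at 97.2 to 125.5 CPM in gubernaculum and 4.24, 6.68 and 12.7 CPM in testis (log2 fold change 3.88, SE 0.39, adjusted p = 0.00015). Calcrl was at 26.9 to 33.6 CPM in gubernaculum and 8.24, 12.8 and 17.3 CPM in testis (log2 fold change 1.34, SE 0.26, adjusted p = 0.0037). These CPM values were scaled within each tissue, so the fold changes come from 1 fit of both. The Calcrl call was lost without gubernaculum replicate 2 (adjusted p = 0.014) or 3 (0.016) and without testis replicate 2 (0.017). Adm (log2 fold change 1.65, SE 0.54, adjusted p = 0.031) and Ramp2 (0.65, SE 0.21, adjusted p = 0.028) were higher in gubernaculum but not called, and Adm was called without testis replicate 3 (2.38, adjusted p = 0.0034). Ramp3, at 1.83 to 3.38 CPM in gubernaculum and 2.55 to 7.73 CPM in testis, and Calca, with 9 to 34 and 4 to 19 counts, overlapped (adjusted p = 0.099 and 0.22). For the pathway lists, 16 of 41 tested genes were called (39%).

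In P8 testis the levels of the members mostly overlapped between genotypes. Calcrl was at 8.24, 12.8 and 17.3 CPM in WT, at 8.48, 7.18 and 11.3 CPM in INSL3-KI, and at 11.3, 9.99 and 11.7 CPM in the libraries labelled INSL3-KO. Ramp2 was the most abundant RAMP, at 80.9% of RAMP FPKM in WT. It stood at 29.2, 34.7 and 43.9 CPM in WT and at 14.3, 12.5 and 19.98 CPM in INSL3-KI, without overlap and past the 2-fold limit, but above the adjusted p limit (log2 fold change −1.14, SE 0.24, adjusted p = 0.014). The libraries labelled INSL3-KO, at 22.4, 41.0 and 25.0 CPM of Ramp2, overlapped with WT (adjusted p = 0.4) and lay above INSL3-KI (adjusted p = 0.05). Ramp1 was at 4.24, 6.68 and 12.7 CPM in WT, at 3.49, 3.18 and 5.36 CPM in INSL3-KI (adjusted p = 0.16) and at 6.81, 5.82 and 6.48 CPM in the libraries labelled INSL3-KO, which overlapped with WT (adjusted p = 0.55) and lay above INSL3-KI (adjusted p = 0.089). For INSL3-KI against WT, edgeR called 0 of 5 members tested and 6.29% of all genes; 1 member had an unadjusted p under 0.05, DESeq2 called 1 and limma 0. For the libraries labelled INSL3-KO against WT, 0 of 5 were called by edgeR, DESeq2 and limma, 0 had an unadjusted p under 0.05, and 13.8% of all genes were called. For INSL3-KI against those libraries, 0 of 5 were called by edgeR, DESeq2 and limma, with 2 at an unadjusted p under 0.05, against 3.92% of all genes. Ramp3 of INSL3-KI varied most, at 2.20, 1.26 and 9.09 CPM, against 2.55, 5.03 and 7.73 CPM in WT and 7.34, 7.37 and 7.14 CPM in the libraries labelled INSL3-KO. The peptide genes overlapped too: Adm was at 0.724, 1.83 and 3.89 CPM in WT and between 1.57 and 3.45 CPM in the other groups, and Calca had at most 19 counts in any P8 testis library. Of the blood endothelial markers, which summed to 323 to 531 CPM in WT, 167 to 244 CPM in INSL3-KI and 206 to 211 CPM in the libraries labelled INSL3-KO, 1 of 13 was called lower in INSL3-KI. The WT libraries differed among themselves, with 37.2 to 292 CPM of summed adipocyte markers, 5.94 to 104 CPM of mesothelial markers and 4745 to 15140 CPM of fibroblast markers, against 2137 to 3372 CPM of fibroblast markers in INSL3-KI and 3430 to 3518 CPM in the libraries labelled INSL3-KO. Their part in the P8 testis values was not tested. Of the pathway genes, 1 of 40 was called in INSL3-KI (2.5%) and 4 of 40 in the libraries labelled INSL3-KO (10%).

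At P23 all 6 members that could be tested in testis changed between INSL3-KO and WT, in a comparison within 1 table. Of all genes tested, 64.4% were called there. The median log2 fold change was 1.78 over the members and 0.06 over all genes. Ramp1 was at 4.55, 3.51 and 3.57 CPM in WT and at 31.9, 29.7 and 31.6 CPM in INSL3-KO (log2 fold change 3.06, SE 0.12, adjusted p = 3.4e-09). Calcrl was at 5.12, 3.67 and 4.65 CPM in WT and at 15.7, 20.4 and 17.4 CPM in INSL3-KO (2.06, SE 0.16, adjusted p = 7.6e-07). The INSL3-KO libraries were above the WT libraries for both parts of the CGRP receptor. Ramp2 was at 8.34, 7.01 and 5.90 CPM in WT and at 19.9, 18.6 and 19.4 CPM in INSL3-KO (1.51, SE 0.14, adjusted p = 2.4e-06). Ramp3 went the other way, from 4.88, 5.95 and 4.98 CPM in WT to 0.960, 1.22 and 0.508 CPM in INSL3-KO (−2.49, SE 0.32, adjusted p = 3.6e-05). No library of any of these 4 genes overlapped between the groups.

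The peptide genes of P23 testis also moved in both directions. Adm had 4, 4 and 12 counts in WT and 52, 61 and 60 counts in INSL3-KO, or 0.161, 0.163 and 0.498 against 1.39, 1.40 and 1.45 CPM (log2 fold change 2.42, SE 0.48, adjusted p = 0.0009). Without WT replicate 3, the library with 12 counts, the log2 fold change of Adm was 3.15 (adjusted p = 0.00043). Calca had 42, 20 and 27 counts in WT and 2, 5 and 0 in INSL3-KO (log2 fold change −4.26, SE 0.73, adjusted p = 0.00029), and −5.32 without INSL3-KO replicate 2, the library with 5 counts (adjusted p = 0.00035). Both rest on few counts, and limma on log2(FPKM + 1), which kept the direction of both, put each under 2-fold and called 4 of the 6 members. Calcb had 0 counts in all 9 libraries of P23 testis.

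INSL3-KI testes at P23 lay between WT and INSL3-KO for some members and close to WT for others. Ramp3 was at 1.09, 2.34 and 1.13 CPM, below every WT library (log2 fold change −1.78, SE 0.36, adjusted p = 0.0084), and was the 1 member called of 6 tested, beside 20.6% of all genes tested. That call was lost without WT replicate 1, 2 or 3 (adjusted p = 0.032, 0.038 and 0.033) or INSL3-KI replicate 1 (0.030). Adm, at 0.870, 1.07 and 0.799 CPM, was above every WT library (1.74, SE 0.52, adjusted p = 0.03) and Calca, at 11, 20 and 12 counts, had lower CPM than every WT library (−1.55, SE 0.46, adjusted p = 0.029), but neither was called. Without WT replicate 3 the value for Adm was 2.47 (adjusted p = 0.025). Calcrl at 5.79, 5.33 and 9.64 CPM (adjusted p = 0.11), Ramp1 at 3.75, 3.76 and 8.48 CPM (0.32) and Ramp2 at 6.17, 8.56 and 13.99 CPM (0.29) did not pass the test; Calcrl was above every WT library and the others overlapped with WT.

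Against INSL3-KO, 2 of 6 members were called in P23 INSL3-KI testis, beside 38.2% of all genes tested. These were Ramp1, lower in INSL3-KI (log2 fold change −2.54, SE 0.35, adjusted p = 0.0011), and Calcrl, lower in INSL3-KI (−1.37, SE 0.27, adjusted p = 0.0045). The Calcrl call was lost without INSL3-KI replicate 1 or 2 (adjusted p = 0.023 and 0.014) or INSL3-KO replicate 1, 2 or 3 (0.015, 0.023 and 0.019). Ramp2 (−1.01, SE 0.30, adjusted p = 0.022) was called without INSL3-KI replicate 3 (−1.39, adjusted p = 9.8e-05). Calca (2.77, SE 0.90, adjusted p = 0.031) was higher in INSL3-KI and not called, and its value was 3.82 without INSL3-KO replicate 2 (adjusted p = 0.037). Ramp3, at 1.09 to 2.34 CPM in INSL3-KI and 0.508 to 1.22 CPM in INSL3-KO, overlapped (adjusted p = 0.21), and Adm, at 0.799 to 1.07 and 1.39 to 1.45 CPM, did not overlap but did not pass the test (adjusted p = 0.12).

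At P40 the receptor and 2 of its partners rose in INSL3-KI testis and Ramp3 fell, so that 4 of 5 members tested were called, beside 47.7% of all genes tested. Calcrl was at 1.97, 2.41 and 3.93 CPM in WT and at 11.2, 13.6 and 14.6 CPM in INSL3-KI (log2 fold change 2.29, SE 0.31, adjusted p = 0.00097). Ramp1 was at 2.15, 1.70 and 2.85 CPM in WT and at 7.54, 13.1 and 13.7 CPM in INSL3-KI (2.41, SE 0.34, adjusted p = 0.0012). Ramp2 was at 5.04, 6.29 and 4.93 CPM in WT and at 10.7, 9.76 and 14.1 CPM in INSL3-KI (1.15, SE 0.21, adjusted p = 0.0031). For these 3 genes all INSL3-KI libraries were above all WT libraries. Ramp3 was at 5.83, 5.30 and 5.40 CPM in WT and at 1.12, 0.601 and 0.685 CPM in INSL3-KI (−2.73, SE 0.28, adjusted p = 0.00043). Ramp2 lost its call without WT replicate 1 (adjusted p = 0.016), WT replicate 3 (0.014) or INSL3-KI replicate 3 (log2 fold change 0.96, adjusted p = 0.0083). Adm overlapped, at 0.395, 0.514 and 1.31 CPM in WT and 0.550, 0.476 and 0.783 CPM in INSL3-KI (adjusted p = 0.67). Calca, with 8, 21 and 19 counts in WT and 7, 0 and 3 in INSL3-KI, was too low to be tested. The median log2 fold change was 1.15 over the members tested and 0.09 over all genes.

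**Figure D4:**
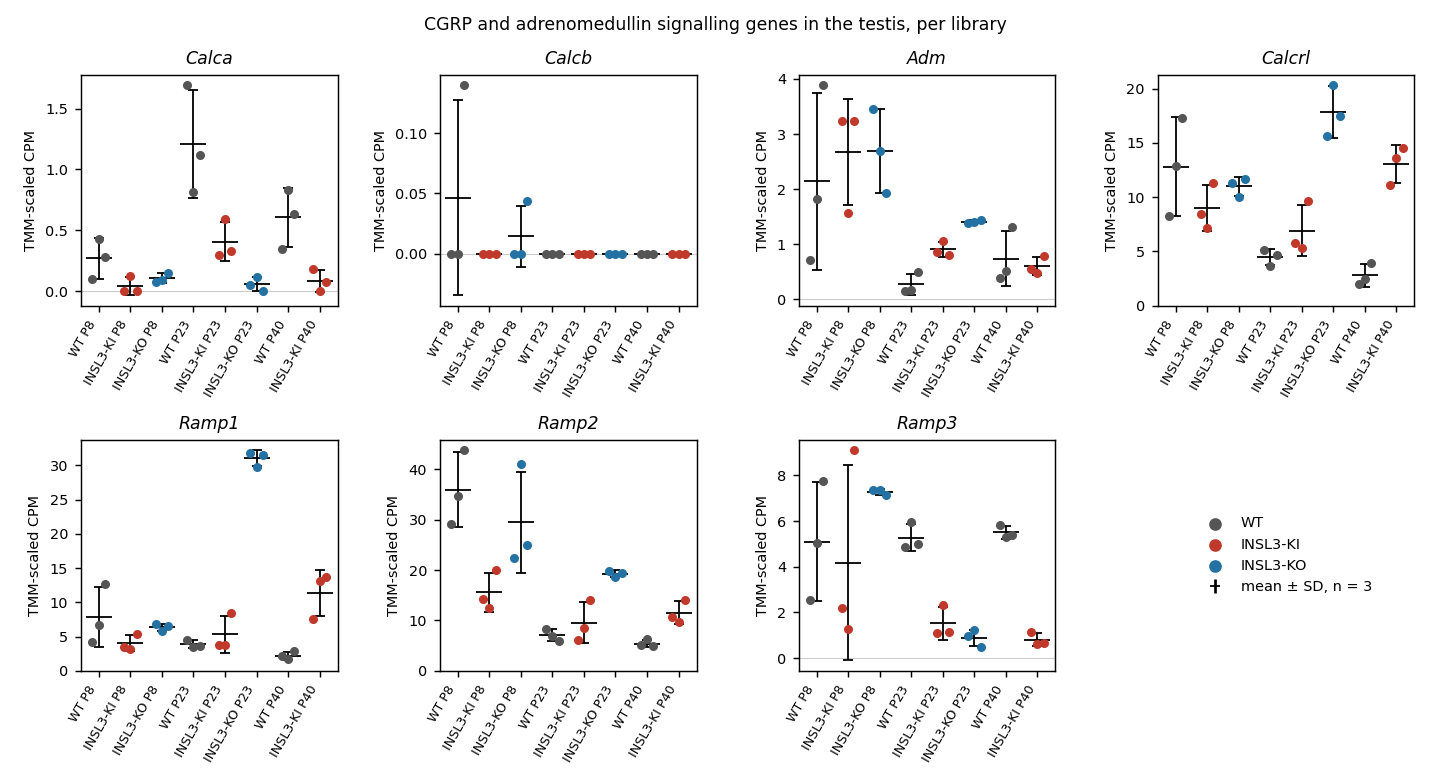
Level of each member in every testis library, as TMM-scaled CPM on a linear axis, by group; points are libraries and bars are the mean ± SD (n = 3). Calcrl, Ramp1 and Ramp2 are higher and Ramp3 is lower than WT in P23 INSL3-KO and P40 INSL3-KI, whereas Calcb has reads in 1 WT P8 library and 1 P8 library labelled INSL3-KO alone.

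**Figure D5:**
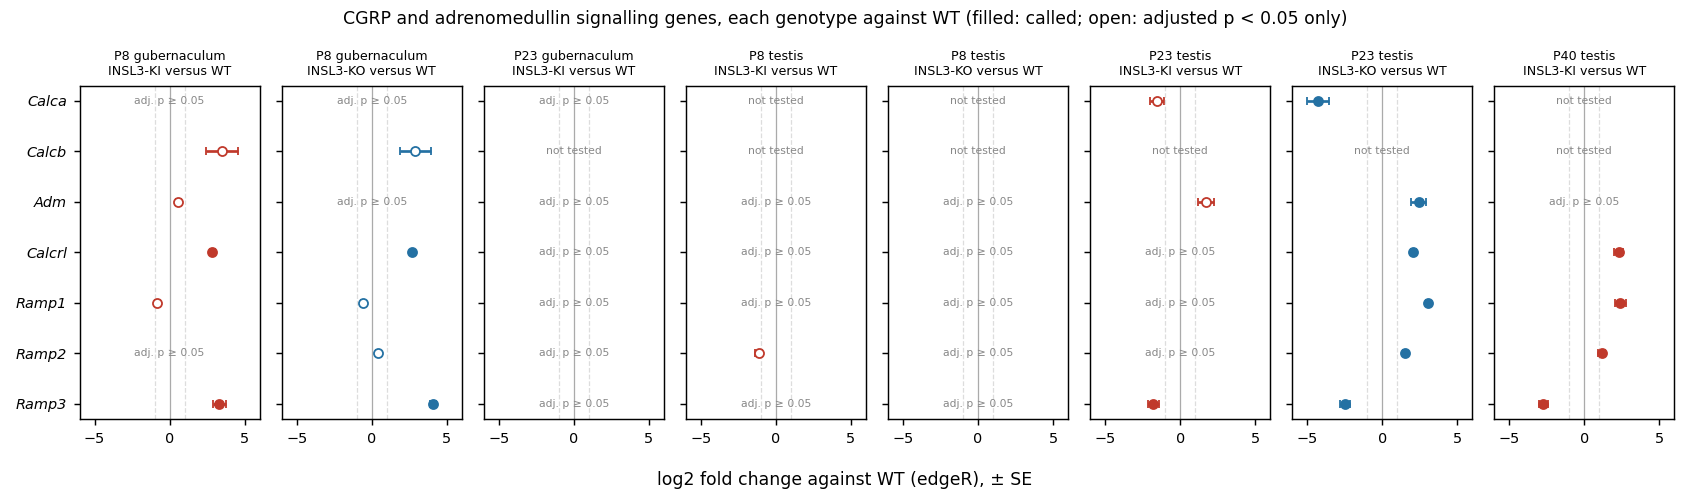
edgeR log2 fold change against WT (± SE) of each member in the 8 comparisons with WT; filled points passed the call rule, open points had an adjusted p under 0.05 only, and dashed lines mark 2-fold. Calcrl lies between 2.06 and 2.85 in P8 gubernaculum of both mutants, P23 INSL3-KO testis and P40 INSL3-KI testis, whereas Ramp3 lies at 3.32 and 4.08 in P8 gubernaculum and between −1.78 and −2.73 in P23 and P40 testis.

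In P23 and P40 testis the share of Ramp3 among the RAMPs was smaller in the mutants than in WT, which was not so at P8. At P8 it was 10.5% in WT, 16.1% in INSL3-KI (overlapping, exact permutation p = 0.6) and 18.4% in the libraries labelled INSL3-KO, which lay above WT without overlap (exact permutation p = 0.1). In P23 testis Ramp3 was 34.6% ± 5.44 (SD, n = 3) of RAMP FPKM in WT, compared with 11.8% ± 5.99 in INSL3-KI and 2.26% ± 0.948 in INSL3-KO, and Ramp1 was 14.4%, 21.0% and 45.2% on average. At P40 Ramp3 was 45.9% ± 2.78 in WT and 4.52% ± 2.32 in INSL3-KI, a difference of −41.4 percentage points, while Ramp1 was 22.99 points and Ramp2 18.4 points higher in INSL3-KI. These P23 and P40 shares were without overlap between the mutant and WT, at the smallest p that the exact permutation test allows (0.1). In WT testis the Ramp3 share was 35.4 points higher and the Ramp2 share 37 points lower at P40 than at P8.

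With age, Calcrl, Ramp1 and Ramp2 fell in WT testis. Of 6 members tested 3 were called between P40 and P8, beside 59.7% of all genes tested: Ramp2 (log2 fold change −2.78, SE 0.19, adjusted p = 4.7e-06), Calcrl (−2.25, SE 0.37, adjusted p = 0.00074) and Ramp1 (−1.86, SE 0.44, adjusted p = 0.0051). The Ramp1 call was lost without P8 replicate 2 (adjusted p = 0.011) and without P40 replicate 1, 2 or 3 (0.025, 0.025 and 0.013). Ramp3, at 2.55 to 7.73 CPM at P8 and 5.30 to 5.83 CPM at P40, overlapped (adjusted p = 0.9), as did Adm (0.077) and Calca (0.14). In INSL3-KI testis, edgeR called 0 of 5 members between these ages and 5.48% of all genes; 3 members had an unadjusted p under 0.05, DESeq2 called 3 and limma 0. Ramp1 was higher at P40 in INSL3-KI (log2 fold change 1.36, SE 0.33, adjusted p = 0.032) and Adm lower (−2.30, SE 0.41, adjusted p = 0.014), neither called; the adjusted p was 0.066 for Ramp3, 0.13 for Ramp2 and 0.25 for Calcrl.

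The differences of the INSL3-KI effect between conditions were tested as interaction terms. Between P40 and P8 testis, 3 of 6 members were called, beside 45.6% of all genes tested: Ramp1 (3.24 on the log2 scale, SE 0.62, adjusted p = 0.0011), Calcrl (2.65, SE 0.48, adjusted p = 0.00081) and Ramp2 (2.20, SE 0.34, adjusted p = 0.00033). Ramp3 differed by −2.62 (SE 0.95, adjusted p = 0.031), which was −3.06 and called without INSL3-KI P8 replicate 2 (adjusted p = 0.0083) and −1.31 without replicate 3 (adjusted p = 0.089). Adm and Calca had adjusted p of 0.5 and 0.97. Between P8 gubernaculum and P8 testis, 1 of 7 members was called, beside 21.8% of all genes tested. This was Calcrl, whose INSL3-KI effect was 3.29 higher on the log2 scale in gubernaculum (SE 0.38, adjusted p = 6.7e-05). Ramp3 (3.51, SE 1.00, adjusted p = 0.015) and Ramp2 (1.09, SE 0.31, adjusted p = 0.016) did not pass the rule; without INSL3-KI P8 testis replicate 3 both did (4.84, adjusted p = 0.00088, and 1.34, adjusted p = 0.0035), and DESeq2 called 3 members in all. Calcb had an adjusted p of 0.052, Calca of 0.18, Ramp1 of 0.92 and Adm of 0.86.

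The makeup of the testis libraries moved along with the members. The 6 germ cell markers summed to 5539 to 6041 CPM in WT P23 testis, 986 to 1295 CPM in INSL3-KI and 320.2 to 371 CPM in INSL3-KO. At P40 they summed to 2855 to 3548 CPM in WT and 309.5 to 885 CPM in INSL3-KI. In WT the germ cell sum was thus higher at P23 than at P40, and the reason was not tested. The 5 Sertoli cell markers summed to 189 to 191 CPM, 309.6 to 760 CPM and 1171 to 1202 CPM at P23 and to 177 to 200.4 CPM and 718 to 1084 CPM at P40, and all 5 were called higher in INSL3-KO and in P40 INSL3-KI. The 6 macrophage markers were all called higher in the same comparisons, at 115 to 125 CPM in WT and 511 to 527 CPM in INSL3-KO at P23 and 101 to 128 and 299 to 431 CPM at P40. Blood endothelial markers summed to 84.8 to 94.6 CPM in WT and 146 to 152.5 CPM in INSL3-KO at P23, with 5 of 13 called higher, and to 94.3 to 116 and 141 to 172.5 CPM at P40, with 2 of 13 called higher. From P8 to P40 in WT, 10 of the 13 were called lower. Over all genes tested, 64.4% were called in P23 INSL3-KO, 47.7% in P40 INSL3-KI and 59.7% from P8 to P40 in WT. The 5 fibroblast markers summed to 332 to 359 CPM in WT, 1200 to 1689 CPM in INSL3-KI and 2029 to 2088 CPM in INSL3-KO at P23, and to 236.5 to 553 and 1123 to 1727 CPM at P40. The 7 smooth muscle and pericyte markers summed to 203 to 206, 329 to 501 and 670.4 to 703 CPM at P23 and to 211 to 305 and 469 to 710.2 CPM at P40. The 5 Leydig cell markers summed to 734 to 766, 286 to 436 and 1631 to 1666 CPM at P23 and to 851 to 985 and 1235 to 1404 CPM at P40. No marker of these 7 lists had 0 counts in all 3 libraries of a P23 or P40 testis group. The part of these cell types in the results for the members was not tested.

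In the pathway lists, 27 of 39 tested genes were called in P23 INSL3-KO testis (10 lower, 17 higher; 69.2%), 7 of 39 in P23 INSL3-KI against WT (17.9%), 14 of 40 in P23 INSL3-KI against INSL3-KO (35%) and 24 of 39 in P40 INSL3-KI (7 lower, 17 higher; 61.5%). Over all genes tested the shares were 64.4%, 20.6%, 38.2% and 47.7%. Of 11 hypoxia targets tested, 7 were called higher and 1 lower in P23 INSL3-KO, and 6 higher and 0 lower in P40 INSL3-KI. Their summed level went the other way, from 1970 to 2003 CPM in WT to 826 to 831 CPM in INSL3-KO at P23 and from 1596 to 1741 CPM to 704 to 1103 CPM at P40. The 1 called lower, Ldha, named here after its values were seen, encodes a lactate dehydrogenase subunit (log2 fold change −3.74 at P23; adjusted p = 0.016 at P40). At P40 the largest log2 decreases among the pathway genes were those of the prohormone convertases: Pcsk2 went from 104 to 113 counts in WT to 0 to 8 in INSL3-KI, and Pcsk1 from 37 to 51 counts to 0 to 4 (adjusted p = 0.0018 for both). The kinase subunit Prkar2a fell from 319.6 to 375 CPM to 25.2 to 42.2 CPM (log2 fold change −3.30, SE 0.25, adjusted p = 0.00026), while Prkar2b rose from 15.7 to 21.6 CPM to 83.8 to 140.4 CPM (2.77, SE 0.27, adjusted p = 0.00041). Crem, the cyclic AMP-responsive factor of spermatids, fell from 240.5 to 302 CPM to 17.1 to 63.0 CPM (−3.05, SE 0.54, adjusted p = 0.0028). From P8 to P40, 27 of 40 pathway genes were called in WT testis (67.5%) and 1 of 37 in INSL3-KI (2.7%), beside 59.7% and 5.48% of all genes, and the interaction with age was called for 23 of 40 (57.5%), beside 45.6%.

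Across the 13 group means, the members differed in which genes they resembled. Likeness was Pearson's r of mean log2 CPM over all 13 groups, among 15137 genes, and is a description: the points share libraries and tissue. Each ranking was repeated with Spearman correlation and with the groups of the first deposited table only. In 10 of these repeats, the great majority of them, most of the 3 named genes were lost, so the names depend on the setting. Calcrl was most like Cd24a (0.992), Myl6 (0.981) and Cav1 (0.978), the gene of the caveolar protein caveolin-1. Ramp2 was most like Tagln2 (0.993), Plp2 (0.992) and Cers4 (0.989), and Ramp1 like Rnase4 (0.975), Tlr2 (0.974) and Arl6ip5 (0.971). Adm was most like Hes1 (0.971), Met (0.968) and Efna1 (0.966). The best matches of Ramp3 were weaker, with Lypd6b (0.918), Emid1 (0.916) and Tmem141 (0.895), as were those of Calca, with Cd109 (0.938), Rdh5 (0.922) and Prom1 (0.902). Calcb was detected in too few groups. Among the members, r was 0.923 for Ramp2 and Adm, 0.884 for Calcrl and Ramp2, 0.839 for Calcrl and Ramp1, 0.577 for Calcrl and Ramp3 and 0.347 for Ramp1 and Ramp3.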

How the data were processed

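The deposited tables hold, per gene and library, read counts and FPKM. The authors made them from paired-end reads of mRNA libraries (TRIzol RNA, Hieff NGS mRNA kit, NovaSeq) aligned with HISAT2, whose version was not given in the sources used here, to GRCm38, as the submitters' processing notes name it. The FPKM values are the authors' own normalization to gene length and depth and were used as deposited, only to compare genes with each other and for the RAMP shares. The 2 tables were joined on the Ensembl identifier (21561 shared genes, which hold 94.2 to 97.9% of the counts), and 0 columns lacked a sample.

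Counts were tested with edgeR 4.0.16 (R 4.3.3): TMM scaling, the filterByExpr filter (minimum count 10, minimum total 15), a quasi-likelihood fit of the compared groups only, with p-values adjusted by Benjamini-Hochberg across every gene that passed the filter. The call rule, an adjusted p under 0.01 and at least 2-fold, follows the study's thresholds. The script was tested on simulated data. Alternatives were DESeq2 1.42.0, limma 3.58.1 on log2(FPKM + 1) and log2(FPKM + 0.1), scaling to library size, no filter, all groups of a tissue in 1 fit, a replicate block, and leaving out each library. Likeness of genes used Python 3.11.15 and a prior count of 2, among genes with a mean CPM of at least 1 and without Gm or Rik names, for members above 0.5 CPM in at least 6 groups; the 3 most alike are named.

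The members and lists were chosen with earlier results of these data known. The 7 members are named in the comparisons that tested them; of the pathway genes, up to 5 called ones with the largest log2 change are named in P8 gubernaculum against WT and in P40 testis, and counts only elsewhere. A fold change is printed only for members with an adjusted p under 0.05. Insl3 and Rxfp2 served as label check. Protein sequences were not used here.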

Additional observations from a re-analysis of the deposited data

Results flagged for a closer look

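The effect of INSL3-KI on Calcrl, Ramp1 and Ramp2 differed between P40 and P8 testis by an interaction term in edgeR. The difference of the effects, P40 minus P8, was 2.65 on the log2 scale for Calcrl (adjusted p = 0.00081), 3.24 for Ramp1 (adjusted p = 0.0011) and 2.20 for Ramp2 (adjusted p = 0.00033). At P40 all 3 INSL3-KI libraries were above all WT libraries for each of these genes, and at P8 the levels of Calcrl and Ramp1 overlapped between INSL3-KI and WT while Ramp2 was lower in all 3 INSL3-KI libraries. Of all genes tested, 45.6% were called for this difference.

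The effect of INSL3-KI on Calcrl also differed between the tissues at P8, by 3.29 on the log2 scale, gubernaculum minus testis (adjusted p = 6.7e-05), with 21.8% of all genes called.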

How the results depend on the processing

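Of 27 calls of a member in a comparison, 17 held under every alternative. The 47 fold changes with an adjusted p under 0.05 kept their direction throughout, whereas 28 of the 68 others changed sign under at least 1 alternative. Scaling to library size moved the median log2 change of all genes by 0.0047 to 0.675, and by over 0.1 in 16 of 19 comparisons. With all groups of a tissue in 1 fit, 1 member each was called in P8 gubernaculum for INSL3-KI and INSL3-KO against WT, 1 in P23 gubernaculum (Calcrl), 1 in P8 testis for INSL3-KI against WT, 0 in P23 testis for INSL3-KI against WT, 0 between the ages of WT gubernaculum and 3 between those of INSL3-KI testis. DESeq2 called 1 in P8 testis INSL3-KI, 3 between the ages of INSL3-KI testis, 1 for the interaction with age in gubernaculum and 3 for that with tissue. Library-size scaling called 0 in P23 testis INSL3-KI against WT, 1 between WT tissues and 2 for the tissue interaction. limma on log2(FPKM + 1) gave 0, 1 and 3 for these, and with + 0.1 it gave 4 in P23 testis INSL3-KI against INSL3-KO, 1 between WT tissues and 4 for the tissue interaction. The cause of these moves was not tested.

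Samples were treated as unpaired. In 0 of 16 comparisons was every correlation of same-numbered libraries over 0.1 (range −0.64 to 0.64). With 3 libraries per group this check cannot exclude pairing. Whether gubernaculum and testis libraries of the same number came from the same mouse was not given in the sources used here. With the replicate block, 0 members were called in P23 testis INSL3-KI against WT and 2 for the tissue interaction, with no other count of member calls moved by over 1.5 times.

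Without 1 library at a time, the members called ranged from 2 to 3 for both P8 gubernaculum mutants against WT, 0 to 1 between them, 0 to 1 in P8 testis INSL3-KI against the libraries labelled INSL3-KO, 0 to 1 and 1 to 3 in P23 testis for INSL3-KI against WT and INSL3-KO, 3 to 5 in P40 testis, 0 to 1 and 2 to 3 between the ages of WT gubernaculum and WT testis, 1 to 3 between WT tissues, 3 to 4 for the interaction with age in testis and 1 to 3 for that with tissue. Shares computed from CPM in place of FPKM gave differences of 21.1 points for Ramp3 in P8 gubernaculum INSL3-KO, 36.7 for Ramp1 in P23 testis INSL3-KO, and 30.6 for Ramp1 and −38.3 for Ramp3 in P40 testis.

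Counts of all genes called moved by over 1.5 times in P8 gubernaculum INSL3-KI against INSL3-KO (3515, from 2316 to 3916), P23 gubernaculum (387, 0 to 2480), P8 testis INSL3-KI against WT (987, 6 to 2161) and against the libraries labelled INSL3-KO (617, 318 to 898), P23 testis INSL3-KI against WT (3428, 1598 to 5325), the ages of WT gubernaculum (1571, 540 to 2582), INSL3-KI gubernaculum (0, 0 to 596) and INSL3-KI testis (874, 0 to 2236) and the age interaction in gubernaculum (45, 1 to 1124). Calcb and testis Calca and Adm rest on few counts, which limits what they can show.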
